A study of Mus musculus with 4 samples.

Results

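The 10 genes described here encode the enzymes that build fatty acids from cytosolic citrate and the factors that set the level of those enzymes. They were measured by RNA-seq in 4 mouse sarcomas, 2 from mice given arsenic trioxide (ATO 1 and ATO 2) and 2 from mice given PBS (PBS 1 and PBS 2). They were named as a list of de novo lipogenesis genes (Fasn, Scd1, Scd2, Acaca, Acly, Elovl6, Me1, Srebf1, Mlxipl and Thrsp) after their ATO against PBS values had been seen, and they are 10 of the 56691 genes of the table. The list was thus chosen by the measured ATO against PBS differences of these same sarcomas, so the differences between ATO and PBS given for them are a description and not a test.

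The study asked how the transcriptome of sarcomas differs with ATO, a compound that can restore function to some structural mutants of p53. All 4 sarcomas came from W/+ mice, which carry 1 mutant and 1 wild-type Trp53 allele from the germline, with the genotype given in the labels as p53R282W/+ by the numbering of the human protein. ATO was given in the drinking water, and PBS is the treatment that the labels list for the other group. The labels do not give the sarcoma type, the site, the age of the mice or whether the sarcomas of a group came from different mice, so any spread within a group is the spread between these samples. Although each sample is labelled as tumor tissue, the labels also attach to all 4 a cell culture protocol in which dexamethasone, isobutylmethylxanthine and insulin are added, a mixture used to differentiate adipocytes.

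De novo lipogenesis starts with citrate that leaves the mitochondrion and is cleaved to acetyl-CoA by ATP citrate lyase (Acly). Acetyl-CoA carboxylase (Acaca) makes malonyl-CoA, fatty acid synthase (Fasn) assembles palmitate from it with NADPH, partly supplied by malic enzyme (Me1), and Elovl6 and the stearoyl-CoA desaturases (Scd1 and Scd2) lengthen and desaturate the product. The transcription factors SREBP-1 (Srebf1) and ChREBP (Mlxipl) drive these genes in response to insulin and glucose, and Thrsp (Spot 14) is a lipogenic protein abundant in fat and liver. The pathway is strongest in liver, adipose tissue and lactating mammary gland, and it is also active in many tumors.

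Total counts were between 15259695 and 18134000 per sarcoma, so a gene with no count could still have had up to 3 counts, or 0.165 to 0.197 CPM (counts scaled to library size), considering counting error alone. ATO 2 stood apart, since mitochondrial genes took 14.7% of its counts against between 1.98% and 2.59% in the other sarcomas. Mesenchymal genes such as Vim, Col1a1 and Sparc were detected in every sarcoma, with a summed FPKM between 1787 in ATO 2 and 6995 in PBS 1. Levels below are given as deposited FPKM (counts scaled to exon length and to the total count of the library), which can be compared between genes. Differences are fitted log2 values, ATO minus PBS, from edgeR on TMM-normalized counts.

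The promoter windows of Fasn, Acly and Mlxipl are shown because Fasn and Acly were lowest in ATO 1 and highest in ATO 2, whereas Mlxipl, a regulator, was higher in both ATO sarcomas. RefSeq windows of 250 bases before the start site (GRCm38.p6) were at hand for 8 of the 10 members, and not for Scd1 and Scd2. Capitals mark matches on either strand to the sterol regulatory element TCACNCCAC, the E-box CACGTG, the CCAAT box and the GC box GGGCGG. They are Fasn at chr11:120824548-120824797, Acly at chr11:100528001-100528250, both on the minus strand, and Mlxipl at its upstream start, chr5:135089640-135089889, and at its internal start, chr5:135106641-135106890, both on the plus strand.
Fasn: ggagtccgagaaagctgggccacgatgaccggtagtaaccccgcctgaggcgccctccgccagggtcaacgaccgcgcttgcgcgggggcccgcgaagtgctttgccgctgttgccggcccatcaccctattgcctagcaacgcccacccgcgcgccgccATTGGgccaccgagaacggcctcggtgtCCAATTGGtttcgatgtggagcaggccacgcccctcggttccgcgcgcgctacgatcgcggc
Acly: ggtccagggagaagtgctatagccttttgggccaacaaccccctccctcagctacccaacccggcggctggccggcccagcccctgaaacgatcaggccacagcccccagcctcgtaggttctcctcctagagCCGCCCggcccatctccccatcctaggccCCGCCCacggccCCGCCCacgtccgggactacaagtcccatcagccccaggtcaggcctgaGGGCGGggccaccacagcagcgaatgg
Mlxipl upstream: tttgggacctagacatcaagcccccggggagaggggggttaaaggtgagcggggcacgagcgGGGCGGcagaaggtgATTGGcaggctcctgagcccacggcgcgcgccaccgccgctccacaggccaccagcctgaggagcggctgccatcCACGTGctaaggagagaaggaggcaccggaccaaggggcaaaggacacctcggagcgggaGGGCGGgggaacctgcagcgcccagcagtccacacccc
Mlxipl internal: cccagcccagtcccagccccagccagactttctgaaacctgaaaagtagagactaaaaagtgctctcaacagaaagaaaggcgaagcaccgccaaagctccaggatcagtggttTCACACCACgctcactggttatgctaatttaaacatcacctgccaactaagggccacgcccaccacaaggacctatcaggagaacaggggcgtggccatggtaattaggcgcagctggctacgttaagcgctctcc

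The Fasn window held 3 CCAAT matches, of which a pair overlapped in the palindrome CCAATTGG, and the Acly window held 4 GC boxes. Mlxipl carried 1 E-box, the letters that ChREBP and USF factors can bind, in its upstream window and 1 TCACNCCAC match in its internal window, 17001 bases downstream. Over the windows of the 8 members nearest to the annotated gene start, 0 held TCACNCCAC, 1 held CACGTG, 4 held CCAAT and 3 held GGGCGG. Not all of these lie before the gene, since that of Acaca is 65766 bases from its annotated start and that of Thrsp holds 180 exonic bases. Among 32851 RefSeq promoter windows of the same length, the shares were 1.05%, 6.02%, 33.8% and 32.7%. A match is a string of letters and not a measured site, and the lack of a match says only that these letters are not in that window.

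The 10 genes together were far more abundant in ATO 2 than in the other sarcomas. Their summed level was 266.57 FPKM in PBS 1, 162.33 in PBS 2, 146.2 in ATO 1 and 6241 in ATO 2. ATO 1 thus had the lowest sum of the 4 sarcomas and ATO 2 the highest, and the ATO group enclosed the PBS group. The members took 0.153% of all counts in PBS 1, 0.0954% in PBS 2, 0.0784% in ATO 1 and 3.60% in ATO 2. In ATO 2, Scd1 alone took 1.68% and Fasn 1.16%, which placed them at rank 4 and rank 7 of all genes by count.

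**Figure D1:**
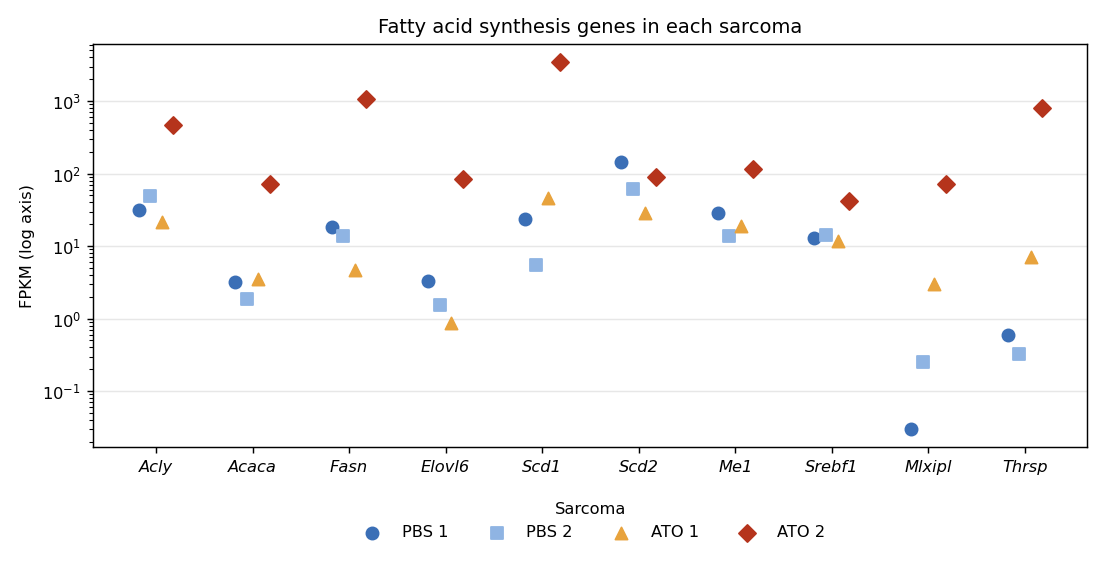
FPKM of each member (log axis) in the 4 sarcomas, with 1 point per sarcoma and no error bar because each point is 1 library. ATO 2 is the highest point for every gene except Scd2, and ATO 1 is the lowest for Acly, Fasn, Elovl6, Scd2 and Srebf1.

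The enzymes that carry acetyl units from citrate into palmitate are given in pathway order, with gene positions on GRCm38. Acly (ENSMUSG00000020917, chr11:100476353-100528000), which cleaves citrate, was at 31.03 FPKM in PBS 1, 48.58 in PBS 2, 21.2 in ATO 1 and 475.0 in ATO 2. Only ATO 2 was above the PBS sarcomas and ATO 1 was below both, and the fitted log2 difference was 3.05 ± 1.57 (SE, n = 2 sarcomas per group). Acaca (ENSMUSG00000020532, chr11:84129672-84401651), the committed step, was at 3.23 FPKM in PBS 1, 1.88 in PBS 2, 3.49 in ATO 1 and 70.81 in ATO 2. Both ATO sarcomas were above both PBS sarcomas, ATO 1 by a margin smaller than the gap between PBS 1 and PBS 2, and the fitted log2 difference was 4.27 ± 1.61 (SE, n = 2 per group).

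Fasn (ENSMUSG00000025153, chr11:120805846-120824547), which assembles palmitate, showed the widest range between the ATO sarcomas. It was at 18.28 FPKM in PBS 1, 13.98 in PBS 2, 4.63 in ATO 1 and 1061 in ATO 2. The PBS sarcomas lay close together, ATO 1 was lowest and ATO 2 was 229 times ATO 1. The mean normalized level was 161 ± 32.0 CPM in PBS and 7126 ± 10006 CPM in ATO (SD, n = 2 each), so the SD of the ATO group exceeded its mean. The fitted log2 difference was 5.47 ± 2.54 (SE), and without ATO 2 it was -1.67.

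Elovl6 (ENSMUSG00000041220, chr3:129532355-129638495), the elongase that takes palmitate to stearate, followed Fasn most closely. Its level was 3.25 FPKM in PBS 1, 1.52 in PBS 2, 0.88 in ATO 1 and 85.4 in ATO 2. ATO 1 was again lowest and ATO 2 highest, and the fitted log2 difference of 4.59 ± 2.11 (SE, n = 2 per group) became -1.30 without ATO 2. Over the 4 sarcomas, Elovl6 was the gene of all 17188 tested whose centred log2(CPM + 1) profile was nearest to that of Fasn, with a root mean square difference of 0.565 on the log2 scale. Aspg (0.717), Ntrk3 (0.757), Cxcl3 (0.775) and Igkv9-120 (0.804) came next, a description over 4 points that are set mainly by ATO 2.

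The desaturases parted. Scd1 (ENSMUSG00000037071, chr19:44394455-44407879), the isoform of liver and fat, was at 23.9 FPKM in PBS 1, 5.49 in PBS 2, 46.38 in ATO 1 and 3428 in ATO 2. Both ATO sarcomas were above both PBS sarcomas and ATO 2 was 73.9 times the next highest, and the fitted log2 difference was 7.30 ± 2.62 (SE, n = 2 per group). Scd2 (ENSMUSG00000025203, chr19:44293674-44306864), its neighbor and the more broadly expressed isoform, was at 144.77 FPKM in PBS 1, 62.26 in PBS 2, 28.82 in ATO 1 and 89.35 in ATO 2. The groups overlapped, PBS 1 was highest and ATO 1 lowest, and the fitted log2 difference of -0.46 ± 0.87 (SE) was smaller than its error.

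Scd2 was thus the most abundant of the 10 members in both PBS sarcomas, and Scd1 in both ATO sarcomas. The ratio of Scd1 to Scd2 by FPKM was 0.165 in PBS 1, 0.0882 in PBS 2, 1.61 in ATO 1 and 38.4 in ATO 2. The ratio passed 1 in ATO 1 through a lower Scd2 and a higher Scd1, and in ATO 2 through Scd1. Of the 50-base windows of Scd1 exons, 2.97% also occur in Scd2, and how reads that align to both were handled is not given. The other desaturase paralogs were near the limit of detection, with at most 6 counts of Scd3 and at most 12 counts of Scd4 in any sarcoma. The genes whose profiles were nearest to that of Scd2 were Sulf1 (root mean square difference 0.0635), Enc1 (0.0922), Serpina3h (0.106), Sdc1 (0.112) and Tmem26 (0.140), none of them a lipogenic gene.

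Me1 (ENSMUSG00000032418, chr9:86581371-86695953), which makes cytosolic NADPH while turning malate into pyruvate, moved less. It was at 28.58 FPKM in PBS 1, 13.93 in PBS 2, 19.09 in ATO 1 and 115.4 in ATO 2. ATO 1 fell between the PBS sarcomas, and the fitted log2 difference was 2.04 ± 1.06 (SE, n = 2 per group) with ATO 2 and -0.027 without it.

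The regulators ran from a small difference to the largest. Srebf1 (ENSMUSG00000020538, chr11:60199089-60222581) was at 12.9 FPKM in PBS 1, 14.11 in PBS 2, 11.74 in ATO 1 and 41.93 in ATO 2. The first 3 of these values lay within a narrow band and ATO 2 was 2.97 times the highest of them, and the fitted log2 difference was 1.35 ± 0.78 (SE, n = 2 per group). Gene counts do not separate the Srebf1 isoforms, nor the precursor from the active SREBP-1 protein. The Srebf1 exons share 109 bases with Rai1 on the opposite strand, 1.93% of its exonic length, and whether strand was used in counting is not given. Antisense genes overlap 0.529% of the exonic length of Elovl6 and 0.780% of that of Me1.

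Mlxipl (ENSMUSG00000005373, chr5:135089890-135138382), which encodes ChREBP, was almost undetected in the PBS sarcomas. Its level was 0.03 FPKM in PBS 1 (3 counts), 0.25 in PBS 2 (25 counts), 2.97 in ATO 1 (298 counts) and 72.74 in ATO 2 (6147 counts). Both ATO sarcomas were above both PBS sarcomas, and the fitted log2 difference of 8.47 ± 2.25 (SE, n = 2 per group) rests on low PBS counts, of which that in PBS 1 is at the limit that 3 counts set. Gene counts do not separate the transcripts that begin at the upstream and the internal start of Mlxipl. An antisense gene, Gm43500, overlaps 4.24% of the exonic length of Mlxipl and had at most 22 counts.

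Thrsp (ENSMUSG00000035686, chr7:97412938-97417730) had the largest fitted difference of the members. It was at 0.6 FPKM in PBS 1 (23 counts), 0.33 in PBS 2 (13 counts), 7.0 in ATO 1 (278 counts) and 801.59 in ATO 2 (26776 counts). Both ATO sarcomas were above both PBS sarcomas, and ATO 2 was 115 times ATO 1. The fitted log2 difference was 10.17 ± 2.78 (SE, n = 2 per group), and without ATO 2 it was 4.03.

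**Figure D2:**
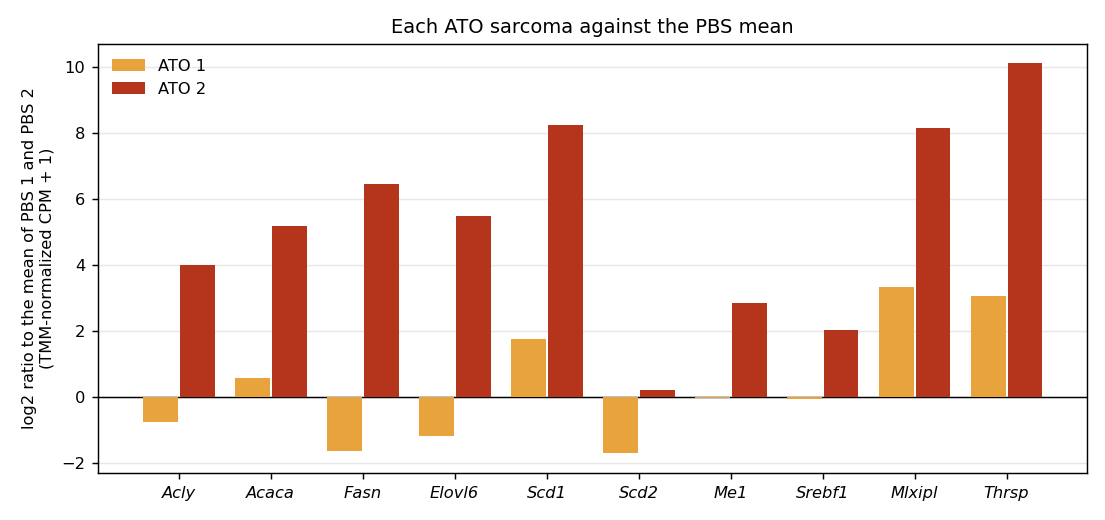
Log2 ratio of each ATO sarcoma to the mean of PBS 1 and PBS 2 for the 10 members, on TMM-normalized CPM + 1, with 1 bar per sarcoma and no error bar. The ATO 2 bars run from 0.21 for Scd2 to 10.12 for Thrsp, while the ATO 1 bars run from -1.71 for Scd2 to 3.35 for Mlxipl and 6 of the 10 lie below 0.

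Read over the whole list, the fitted log2 difference was positive for 9 of the 10 members, against 49.2% of the 17188 genes tested. All 10 members passed the filter on low counts. The median of the members was 4.43, against -0.016 over all genes tested. It was 5.38 without ATO 1 and -0.047 without ATO 2, and without ATO 2 only 4 of the 10 members (Scd1, Acaca, Mlxipl and Thrsp) stayed positive, at 1.78 for Scd1, 0.58 for Acaca, 4.53 for Mlxipl and 4.03 for Thrsp. Fasn, Acly (-0.77), Elovl6, Me1 and Srebf1 (-0.067) turned negative.

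By sarcoma, ATO 2 had the highest normalized level for 9 of the 10 members, against 25.5% of all genes tested. For 8 members ATO 2 was at least 4 times every other sarcoma on CPM + 1, against 2.37% of all genes tested, and the exceptions were Scd2 and Srebf1. Srebf1 lay at that limit, 4.01 times the next sarcoma on CPM without the added 1. ATO 1 had the lowest level for 5 members (Fasn, Scd2, Acly, Elovl6 and Srebf1), against 23.9% of all genes tested. Both ATO sarcomas were above both PBS sarcomas for 4 members (Scd1, Acaca, Mlxipl and Thrsp), against 19.7% of all genes, and below them for 0 members, against 20.2%. A gene counted in a single sarcoma can fail the filter on low counts and is then not in these shares. Ucp1 failed it, with 37084 counts in ATO 2 and at most 3 elsewhere.

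Of the 10 members, 0 passed a Benjamini-Hochberg adjusted p of 0.05 in edgeR's quasi-likelihood test, as did 0% of all genes tested, and the smallest adjusted p of a member was 0.570. At an unadjusted p of 0.05, 4 members were higher in ATO (Scd1, Acaca, Mlxipl and Thrsp), against 5.44% of all genes tested. DESeq2 called 5 members (the same 4 and Fasn) at an adjusted p of 0.05, against 2.44% of the 30859 genes entered. Those are all genes with a count, before the default low-count filter of DESeq2, so that share is not like one over filtered genes. Without its filter on low counts, edgeR called 4 members, among 541 of the 30859 genes entered. Since this contrast selected the members, the counts are a description. With 2 sarcomas per group, an exact permutation test of a single gene cannot go below p = 0.333.

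Fat tissue markers moved with the members in ATO 2. The 12 adipocyte markers summed to 42.9 FPKM in PBS 1, 98.67 in PBS 2, 563.32 in ATO 1 and 2293 in ATO 2. All 12 were higher in both ATO sarcomas than in both PBS sarcomas, against 19.7% of all genes tested. The defining markers Adipoq and Plin1 had at most 2 counts in either PBS sarcoma, and 974 and 445 counts in ATO 1, and 4017 and 7630 in ATO 2. Of the brown adipocyte markers, Ucp1, the uncoupling protein of brown fat, was at 0.07 FPKM in PBS 1, 0.1 in PBS 2, 0.03 in ATO 1 and 1485 in ATO 2. Cidea, another brown fat marker, was listed at 0 in both PBS sarcomas, at 1.19 FPKM in ATO 1 and at 546.53 in ATO 2. Ucp1 was thus at or under 3 counts outside ATO 2, and the 8 brown adipocyte markers summed to 3050 FPKM there against between 3.04 and 68.27 elsewhere. ATO 2 had the highest normalized level for 5 of the 7 that passed the filter on low counts, against 25.5% of all genes tested. Ucp1 did not pass that filter. The exceptions were Ppargc1a, at 3.21 FPKM in ATO 1 and 2.06 in ATO 2, and Dio2, at 32.73 in PBS 1 and 3.76 in ATO 2. Of the sum of 68.27 in ATO 1, Cox8b held 50.7 and Cox7a1 12.37, and of 35.04 in PBS 1, Dio2 held 32.73.

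Beside the adipocyte markers, the members fell into groups. Mlxipl, Thrsp, Scd1 and Acaca were higher in both ATO sarcomas than in both PBS sarcomas, as the 12 adipocyte markers were, and Mlxipl had the same order over the 4 sarcomas as the adipocyte sum. Fasn, Acly, Elovl6 and Scd2 were lower in ATO 1 than in either PBS sarcoma, whereas the adipocyte sum was higher in ATO 1 than in either. Srebf1 was nearly level in ATO 1 (65.9 CPM, against 66.7 in PBS 1 and 72.0 in PBS 2), and Me1 lay between the PBS sarcomas there. In PBS 1 and PBS 2, where Adipoq and Plin1 were near 0, Fasn, Acly and Scd2 were between 13.98 and 144.77 FPKM, while Mlxipl and Thrsp were at most at 0.6. Of the 12 adipocyte markers, 6 had 3 counts or fewer in PBS 1 and 4 in PBS 2. Others were present there, such as Fabp4 at 12.63 and 66.1 FPKM and Cebpa at 14.75 and 10.49. From ATO 1 to ATO 2 the adipocyte sum was 4.07 times as high, with single markers between 0.281 (Plin4) and 20.4 times (Plin1). The brown adipocyte sum was 44.7 times as high, but its single markers were spread widely. Ppargc1a was 0.642 times as high, Cox8b 13.3, Cox7a1 20.2, Elovl3 177 and Cidea 459 times, and Ucp1 went from 1 count to 37084. Over the same pair, Fasn was 229 times as high, Thrsp 115 times, Elovl6 97.0 times and Scd1 73.9 times, Mlxipl, Acly and Acaca between 20.3 and 24.5 times, and Me1 (6.05), Srebf1 (3.57) and Scd2 (3.10) less. In bulk tissue, fewer cells of a type and less RNA per cell cannot be told apart.

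Markers of other lipogenic or bystander cells were also read. Of the 8 hepatocyte markers, Ttr was at 0 in every sarcoma, Alb had at most 22 counts and Cyp2e1 alone passed the filter on low counts, with 779 counts in ATO 1 and 444 in ATO 2. Fgb, which did not pass it, had 97 counts in ATO 2 and at most 8 elsewhere. The epithelial list reached 20.97 FPKM in ATO 2 and between 1.05 and 7.99 elsewhere, the macrophage list stayed between 188.34 and 419.39, and the Schwann cell list between 34.77 and 84.69. Skeletal muscle markers summed to 7.39 FPKM in PBS 1, 123.23 in PBS 2, 13823 in ATO 1 and 1019 in ATO 2. Muscle RNA was thus highest in ATO 1, where the members' sum was lowest. The orders were not opposite throughout, since ATO 2 had the highest members' sum and more muscle RNA than either PBS sarcoma. The part of fat and muscle RNA and of the mitochondrial share in the members' levels was not tested, and with 2 sarcomas per group treatment and tissue makeup cannot be told apart.

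**Figure D3:**
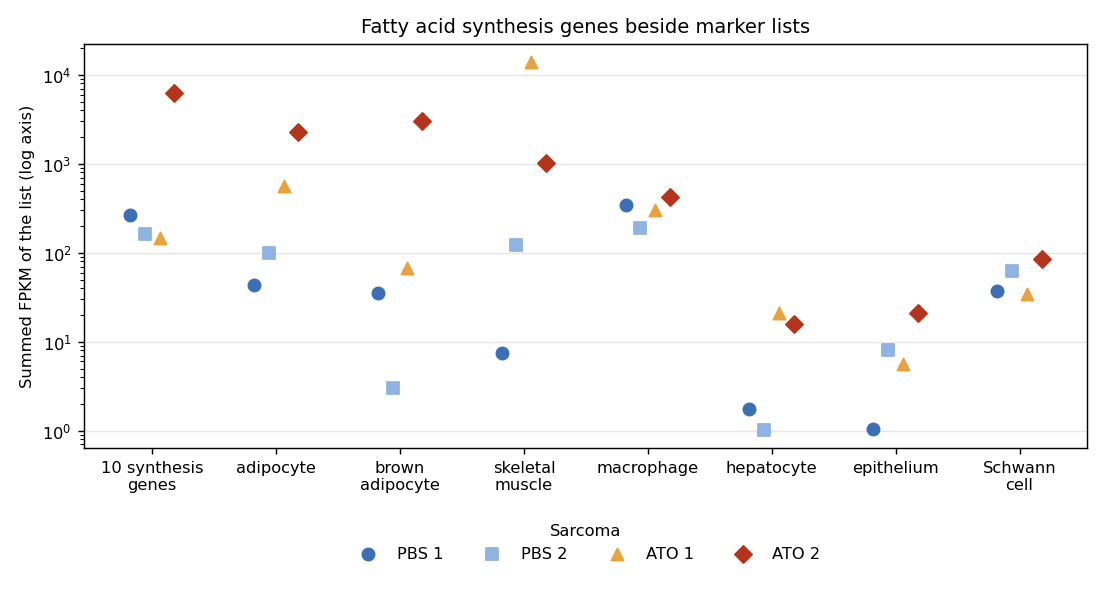
Summed FPKM (log axis) of the 10 synthesis genes and of 7 marker lists in the 4 sarcomas, with 1 point per sarcoma. ATO 2 is highest for the synthesis genes and for both adipocyte lists, and ATO 1 is highest for skeletal muscle at 13823.

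Beside their paralogs, several members changed their share in ATO 2. Acaca and Acacb encode the cytosolic and the mitochondrial acetyl-CoA carboxylase, the latter known for restraining fatty acid oxidation in muscle and fat. Acacb was at 0.83 FPKM in PBS 1, 1.79 in PBS 2, 33.37 in ATO 1 and 80.81 in ATO 2, and the ratio of Acaca to Acacb was 3.89, 1.05, 0.105 and 0.876 in the same order. Acacb was therefore the more abundant carboxylase in both ATO sarcomas and Acaca in both PBS sarcomas. No 50-base window of Acaca exons occurs in Acacb.

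Srebf2, the paralog that drives cholesterol synthesis, was at 17.69 FPKM in PBS 1, 16.03 in PBS 2, 7.15 in ATO 1 and 9.61 in ATO 2. It was lower in both ATO sarcomas (fitted log2 difference -0.70), and the ratio of Srebf1 to Srebf2 went from 0.729 and 0.880 in PBS 1 and PBS 2 to 1.64 in ATO 1 and 4.36 in ATO 2. Mlxip, the paralog of Mlxipl, exceeded it in 3 of the 4 sarcomas, and the ratio of Mlxipl to Mlxip was 0.00322 in PBS 1, 0.0275 in PBS 2, 0.114 in ATO 1 and 9.30 in ATO 2. The ratio of Thrsp to its paralog Mid1ip1, which encodes an activator of acetyl-CoA carboxylase, was 0.0408, 0.0177, 0.241 and 14.3 in that order. The ratio of Elovl6 to Elovl5, an elongase of polyunsaturated chains, was 0.122, 0.0473, 0.0689 and 1.92. ATO 2 was highest in 5 of the 6 ratios.

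**Figure D4:**
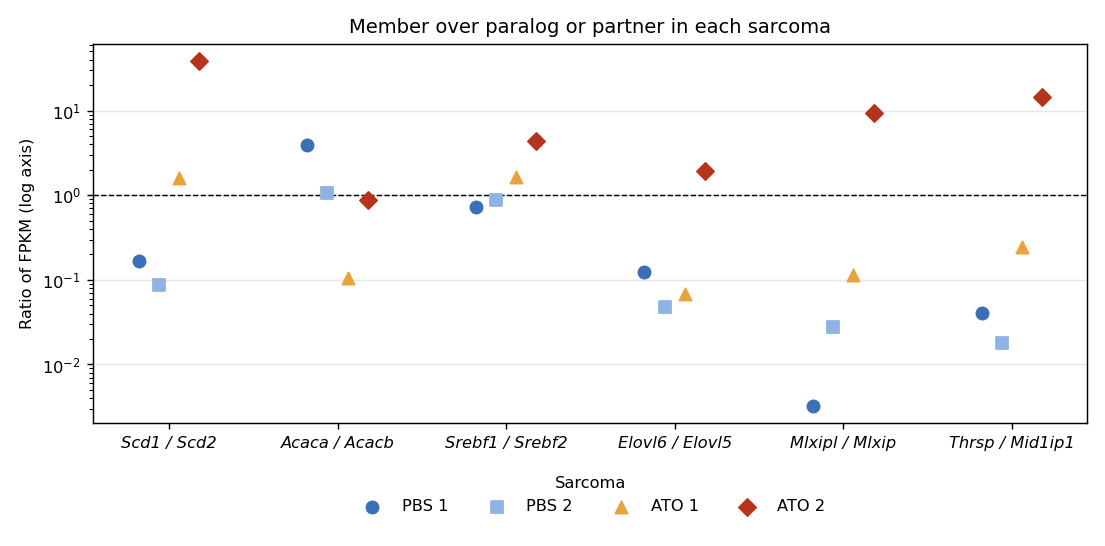
Ratio of the FPKM of 6 members to that of a paralog (log axis, dashed line at 1) in the 4 sarcomas, with 1 point per sarcoma. ATO 2 is the highest point in each pair except Acaca to Acacb, where PBS 1 is highest at 3.89.

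Genes around the pathway were read from lists named for their roles. Among partners and paralogs of the enzymes, 23 of 25 genes were tested, 16 had a positive and 7 a negative fitted difference, 0 passed the adjusted p in edgeR and 6 passed an unadjusted p of 0.05, all higher in ATO. Of all genes tested, 49.2% were positive and 5.44% passed that unadjusted p with a higher level in ATO. The median log2 difference of the list was 0.68, against -0.016 over all genes, and -0.046 without ATO 2. Slc25a1, the mitochondrial citrate carrier that feeds Acly, was at 18.89 FPKM in PBS 1, 18.18 in PBS 2, 12.74 in ATO 1 and 174.49 in ATO 2. It had the same order as Acly in that ATO 1 was lowest and ATO 2 highest. Tecr, the reductase that completes each elongation round, was highest in ATO 1 at 95.34 FPKM against 57.95 in ATO 2 and 43.57 and 37.01 in the PBS sarcomas. Elovl3, an elongase of brown fat, was listed at 0 in both PBS sarcomas and had 11 counts in ATO 1 and 1657 in ATO 2. The lowest fitted values of this list were those of Elovl4 (-1.77) and Hacd1 (-0.61).

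The suppliers of NADPH and of oxaloacetate and citrate were higher in ATO 2 than elsewhere for 9 of 10 genes, against 25.5% of all genes tested. Their median log2 difference was 1.79 (0.44 without ATO 2, with 7 positive), with 9 positive and 1 negative, 0 past the adjusted p and 3 past an unadjusted p of 0.05, all higher in ATO. Of all genes tested, 49.2% were positive and 5.44% passed that unadjusted p with a higher level in ATO. Pcx, pyruvate carboxylase, was at 7.34 FPKM in PBS 1, 1.09 in PBS 2, 13.28 in ATO 1 and 88.94 in ATO 2. Cs, citrate synthase, was at 28.15, 29.79, 51.82 and 211.02 FPKM in that order, and both genes were higher in both ATO sarcomas. Me2, the mitochondrial relative of Me1, was the member of this list with a negative value (-0.54), and Me3 (3.75) and Pgd (0.56) were positive. Taldo1, a pentose phosphate enzyme, was highest in ATO 2 at 257.06 FPKM against between 33.02 and 104.11 elsewhere.

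Regulators of SREBP and ChREBP, listed together with Pnpla3, a gene that both regulate, were mixed, with 14 of 20 positive and 6 negative. Their median was 0.48 (0.27 without ATO 2, with 12 positive). In edgeR, 0 were past the adjusted p and 5, Pnpla3 among them, past an unadjusted p of 0.05, all higher in ATO. Of all genes tested, 49.2% were positive and 5.44% passed that unadjusted p with a higher level in ATO. Insig1, an SREBP target that holds SREBP in the endoplasmic reticulum, was at 15.36 FPKM in PBS 1, 12.41 in PBS 2, 12.87 in ATO 1 and 78.31 in ATO 2. Nr1h3, which encodes the sterol sensor LXR alpha and can activate Srebf1, was at 3.12, 8.47, 8.55 and 25.77 FPKM in that order. Pnpla3, a lipid droplet protein regulated by both factors, had 0 counts in both PBS sarcomas, 70 in ATO 1 and 4172 in ATO 2. Prkaa2, the muscle-rich catalytic subunit of AMPK, was highest in ATO 1 instead, at 20.58 FPKM (2974 counts), against 365 counts in ATO 2 and at most 74 in PBS. Trib3 had the lowest fitted value, -1.17.

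Cholesterol synthesis, the other arm of SREBP control, showed a smaller difference. Its median log2 difference was 0.25 over 21 genes, with 15 positive, 6 negative, 0 past the adjusted p and 1 past an unadjusted p of 0.05, higher in ATO. Of all genes tested, 49.2% were positive and 5.44% passed that unadjusted p with a higher level in ATO. Without ATO 2 the direction turned, with a median of -0.69 and 4 of the 21 positive. ATO 2 was highest for 14 of the 21 genes but at least 4 times every other sarcoma for 2, and ATO 1 was lowest for 11. The shares of all genes tested were 25.5%, 2.37% and 23.9% in that order. Acat2 had the largest value (1.92), followed by Fdft1 (1.65). Hmgcs1, the most abundant with Acat2, was at 0.73. Mitochondrial fatty acid synthesis, a separate pathway that makes the lipoic acid precursor, had a positive value for 8 of 8 genes tested, against 49.2% of all genes. Its median was 1.17, with 0 past the adjusted p and 0 past an unadjusted p of 0.05. Without ATO 2 its median was 0.18 and 5 of the 8 were positive. Ndufab1, its acyl carrier protein, had the largest value (2.26), followed by Acsf3 (1.97) and Mecr (1.89), and Mcat (0.32) and Lias (0.37) the smallest.

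**Figure D5:**
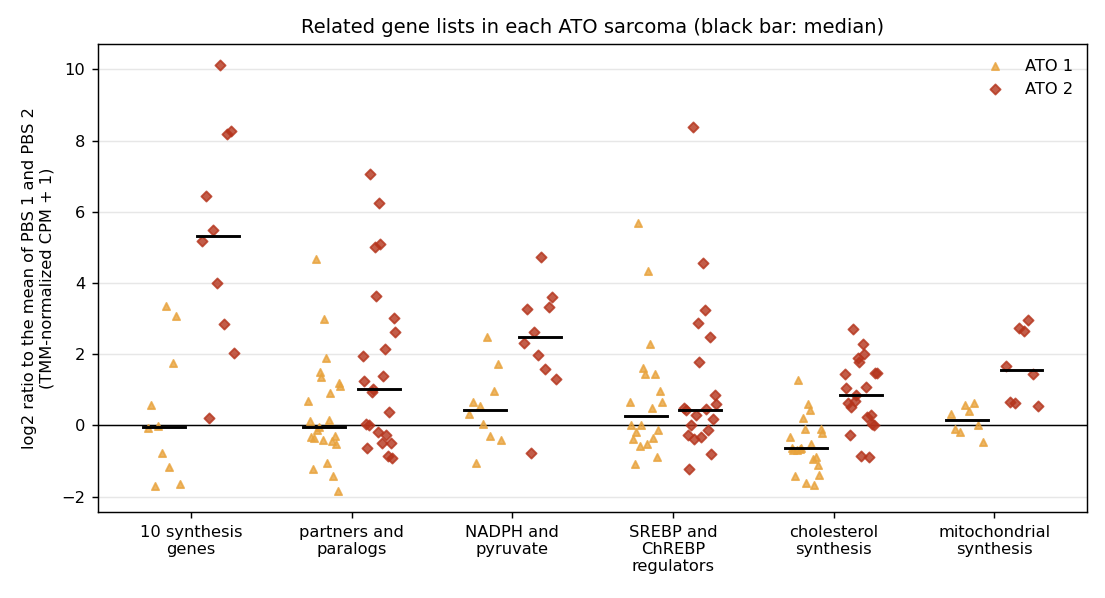
Log2 ratio of ATO 1 and of ATO 2 to the mean of the PBS sarcomas, on TMM-normalized CPM + 1, for each tested gene of the 10 synthesis genes and of 5 related lists, with 1 point per gene and a black bar at the median. The median of the synthesis genes is -0.052 in ATO 1 and 5.33 in ATO 2, and that of cholesterol synthesis is -0.65 in ATO 1 and 0.86 in ATO 2.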

How the data were processed

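RNA-seq of 4 sarcomas was analysed. Per the labels, the authors used FastQC 0.10.1, cutadapt 1.9.1 and HISAT2 2.0.1 on GRCm38, and the methods name HTSeq. The authors deposited raw read counts per gene, without normalization, and FPKM. Dividing each count by exonic length and total count gave the deposited FPKM within 0.0051 for 100% of values. Strand setting and multi-mapped reads are not given in the sources used here. Only 1472 of 52073 shared genes had the GENCODE M21 position of GRCm38, so positions came from M21 by identifier. Genes without a symbol (2639) held at most 0.171% of counts.

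The count test was edgeR 4.0.16 under R 4.3.3 (TMM scaling, genes kept by filterByExpr, quasi-likelihood F-test, Benjamini-Hochberg adjustment over 17188 genes). TMM factors were 1.09, 1.11 and 1.01 in PBS 1, PBS 2 and ATO 1, and 0.822 in ATO 2. SE is the log2 difference divided by the square root of F. Alternatives were DESeq2 1.42.0, its size factors, other filters, a replicate block, each sarcoma left out, no mitochondrial genes, and limma 3.58.1 on log2 FPKM.

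The members and lists were chosen with earlier results of these data known. Named were all members, and per list the 2 highest and 2 lowest fitted differences, the 2 highest mean FPKM, and set paralogs. Motifs were searched on both strands. Hsd17b8, a mitochondrial list gene, was not analysed here. Some genes that this rule names are not reported here.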

Additional observations from a re-analysis of the deposited data

How the results depend on the processing

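The median log2 difference of the 10 members was 4.43, and leaving out each sarcoma in turn gave between -0.047 and 5.38, with 4 (without ATO 2) to 10 members positive. Without ATO 2, 5 members kept their direction and 5 reversed. From the fit without ATO 2 to that without ATO 1 the range was -1.67 to 6.44 for Fasn, -0.77 to 3.99 for Acly, -1.30 to 5.56 for Elovl6, -0.027 to 2.84 for Me1 and -0.067 to 2.04 for Srebf1. Scd2 ran from -1.72 without ATO 2 to 0.19 without ATO 1 and 0.29 without PBS 1. Scd1 fell to 1.78, Acaca to 0.58, Mlxipl to 4.53 and Thrsp to 4.03 without ATO 2. A lone sarcoma in these fits is assumed to vary like the other group, and 0 genes passed the adjusted p in any of them. Genes past an adjusted p of 0.05 numbered 0 of 17188 in edgeR (1463 at an unadjusted p of 0.05). They numbered 753 in DESeq2 (594 higher, 159 lower) and 541 in edgeR without the filter (454 higher, 87 lower), each of 30859 genes entered. Members past that adjusted p numbered 0, 5 and 4 in the same order. The cause was not tested. A replicate block gave a median of 2.34 and 0 genes past the adjusted p (1165 unadjusted); same-numbered sarcomas deviated with a correlation of -0.021, and the numbers are not shown to pair them. In limma on log2(FPKM + 1) the median was 2.07. Apart from the fits that left out a sarcoma, all 80 member differences kept their sign. Of these, 9 passed the threshold, 5 in DESeq2 and 4 in edgeR without the filter. The depth limits Mlxipl in PBS 1, at 3 counts.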

Other observations

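Other lipid enzymes, chosen after their values were seen, had different orders over the sarcomas. Fads1, the delta-5 desaturase of polyunsaturated fatty acids, was at 29.22 FPKM in PBS 1, 11.14 in PBS 2, 20.20 in ATO 1 and 10.60 in ATO 2, and Fads2, the delta-6 desaturase, was at 12.51, 5.74, 19.45 and 3.48 in that order. ATO 2 was lowest for Fads2, where it was highest for Scd1. For Fads1 the lowest sarcoma was ATO 2 by FPKM and PBS 2 on TMM-normalized CPM (48.5 against 62.3 in ATO 2). Lpin1, a phosphatidate phosphatase of triglyceride synthesis, was about equally high in both ATO sarcomas (33.96 FPKM in ATO 1 and 32.00 in ATO 2) and at most 1.97 in PBS. Acsl1, which activates long-chain fatty acids, was at 2.66, 3.57, 23.44 and 77.28 FPKM in PBS 1, PBS 2, ATO 1 and ATO 2. Brown fat genes were not uniform either, since Dio2, a thyroid hormone deiodinase, was highest in PBS 1 at 32.73 FPKM and at 3.76 in ATO 2.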
